A study of Mus musculus with 9 samples.

Results

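The beta-catenin destruction complex and the Dishevelled proteins were followed as 10 genes: Ctnnb1, Apc, Axin1, Gsk3a, Gsk3b, Csnk1a1, Btrc, Dvl1, Dvl2 and Dvl3. They were taken by name from the 32137 genes of the deposited count files, each name matched a single gene, and all 10 were among the 17011 genes that passed the filter on low counts. The RNA came from sorted cells of differentiated mouse bile duct organoids, grown from a single male animal of mixed genetic background with the genotype Axin2CreERT2+/-; R26-LSL-tdTom+/-. In this animal a tamoxifen-inducible Cre made from the Axin2 locus switches on the red reporter tdTom, so that the reporter marks cells that used the Axin2 locus while 4-OHT (4-hydroxytamoxifen) was present.

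All organoids were differentiated for 11 days and received 3 uM dexamethasone and 500 nM 4-OHT in the last 24 h, with or without 100 ng/ml Rspo1, a secreted protein that strengthens Wnt signalling at the cell surface. The untreated group held tdTom-negative cells of organoids without Rspo1, the Rspo1/tdTom- group tdTom-negative cells of Rspo1-treated organoids, and the Rspo1/tdTom+ group tdTom-positive cells of Rspo1-treated organoids. Each group had 3 libraries, from passages 5, 6 and 10 of the organoid line, and tdTom-positive cells of organoids without Rspo1 were not analysed here. Rspo1/tdTom+ and untreated cells therefore differ in treatment and in sorting gate, Rspo1/tdTom+ and Rspo1/tdTom- cells in the gate alone, and Rspo1/tdTom- and untreated cells in the treatment and in having remained negative under it. With a single animal, the p-values of the group comparisons measure the spread between repeated cultures and not between animals.

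Beta-catenin, the product of Ctnnb1, links cadherins to the cytoskeleton at cell junctions and, in the nucleus, acts with TCF/LEF factors on Wnt target genes. Without a Wnt signal the scaffolds Apc and Axin1 hold beta-catenin for phosphorylation by casein kinase 1 alpha (Csnk1a1) and glycogen synthase kinase 3 (Gsk3a, Gsk3b), and beta-TrCP (Btrc) then recognises it for ubiquitination and degradation. A Wnt signal recruits Dishevelled (Dvl1, Dvl2, Dvl3) to the receptors, which draws Axin away and lets beta-catenin accumulate. In the liver this pathway is known for the zonation of hepatocytes and for its activity in regenerating tissue. Much of the control acts on proteins, which were not measured here.

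In CPM, the Rspo1/tdTom- libraries were the highest of all for Gsk3a and Dvl2 and the lowest for their paralogs Gsk3b and Dvl3. Over all tested genes, they did not overlap with the untreated libraries for 36.3% and with the Rspo1/tdTom+ libraries for 45.2%. Gsk3a passed the test given below in neither comparison. The promoters of these 4 genes are shown so that each pair can be compared. Each is the 250 bases before the gene's start, from RefSeq on GRCm38.p6, 5′ to 3′ on the gene's own strand. Capitals mark a TCF/LEF word, searched on both strands as the letters CTTTG followed by A or T and then again by A or T.
Gsk3a, chr7:25237852-25238101, minus strand: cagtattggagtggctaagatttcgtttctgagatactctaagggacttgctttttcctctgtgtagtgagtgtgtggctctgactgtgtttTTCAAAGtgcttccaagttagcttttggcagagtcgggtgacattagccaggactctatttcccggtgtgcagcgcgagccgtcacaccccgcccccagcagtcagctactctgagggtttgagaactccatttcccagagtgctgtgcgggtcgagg
Gsk3b, chr16:38088751-38089000, plus strand: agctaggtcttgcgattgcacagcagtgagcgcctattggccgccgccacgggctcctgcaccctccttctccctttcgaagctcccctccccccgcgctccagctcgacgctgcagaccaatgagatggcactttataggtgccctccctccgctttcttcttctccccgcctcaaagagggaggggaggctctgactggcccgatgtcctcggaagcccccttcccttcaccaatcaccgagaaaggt
Dvl2, chr11:70000342-70000591, plus strand: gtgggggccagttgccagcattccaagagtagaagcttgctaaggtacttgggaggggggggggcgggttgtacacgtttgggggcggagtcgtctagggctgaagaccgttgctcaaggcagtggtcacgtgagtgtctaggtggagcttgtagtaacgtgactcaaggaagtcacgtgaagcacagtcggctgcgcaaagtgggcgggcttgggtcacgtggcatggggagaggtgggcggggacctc
Dvl3, chr16:20516736-20516985, plus strand: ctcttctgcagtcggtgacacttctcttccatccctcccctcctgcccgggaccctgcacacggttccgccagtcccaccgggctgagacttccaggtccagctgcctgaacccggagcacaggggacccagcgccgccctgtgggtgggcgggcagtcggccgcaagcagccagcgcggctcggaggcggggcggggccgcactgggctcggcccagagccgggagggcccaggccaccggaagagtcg
Only the Gsk3a window of the 6 members found in the table (Ctnnb1, Gsk3a, Gsk3b, Dvl1, Dvl2 and Dvl3) held such a word, which lies on the opposite strand and starts 158 bases before the gene's start. Of all 32851 windows of this length in the table, 14.8% held at least 1 of these words. The window of Axin2, the gene that drives the reporter, held none. GC content was 52% in the Gsk3a window and 62%, 60.8% and 72.8% in those of Gsk3b, Dvl2 and Dvl3, beside a median of 52.4% over all windows. A match is a description of the letters, and its absence says nothing about binding.

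On GRCm38, with GENCODE annotation, Ctnnb1 (ENSMUSG00000006932) lies on chromosome 9 from 120929216 to 120960507 on the plus strand. Apc (ENSMUSG00000005871) spans 34220924 to 34322552 and Csnk1a1 (ENSMUSG00000024576) 61555274 to 61590061, both on the plus strand of chromosome 18. Axin1 (ENSMUSG00000024182) spans 26138688 to 26195811 on the plus strand of chromosome 17. Gsk3a (ENSMUSG00000057177) spans 25228258 to 25237851 on the minus strand of chromosome 7. Gsk3b (ENSMUSG00000022812) spans 38089001 to 38246084 and Dvl3 (ENSMUSG00000003233) 20516982 to 20534010, both on the plus strand of chromosome 16. Btrc (ENSMUSG00000025217) spans 45363734 to 45530013 on the plus strand of chromosome 19. Dvl1 (ENSMUSG00000029071) spans 155847402 to 155859303 on chromosome 4 and Dvl2 (ENSMUSG00000020888) 70000595 to 70012301 on chromosome 11, both on the plus strand. The sources used here do not say whether counting used strand. Genes on the opposite strand share 28.3% of the exon bases of Gsk3a (9130221H12Rik). For Dvl2 the shared part is 19.7% (Acadvl on the opposite strand and Mir324) and for Ctnnb1 it is 15.1% (Ulk4 on the opposite strand and Mir7090), so reads in those exons cannot be assigned with certainty.

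The libraries held 23423979 to 37351448 counts each, and every member had at least 399 counts in every library, far above the filter's minimum count of 10. Biliary markers reached 12000 to 17500 CPM in sum (counts scaled to a common library size by TMM). All 12 of them were above 1 CPM on average in every group. Hepatocyte markers reached 330 to 729 CPM in sum, with 4 of 12 above 1 CPM on average in every group. Most of that sum was Ttr (149 to 534 CPM) and Hnf4a (123 to 281 CPM). Mesenchymal and endothelial markers stayed at or below 1.24 and 1.29 CPM in sum, and the leukocyte marker Ptprc at or below 0.133 CPM, while the leukocyte list as a whole reached 45.6 to 68.1 CPM, most of it Csf1r (37.2 to 56.1 CPM). Axin2, the gene that drives the reporter, had a level of 3.01 ± 2.56, 88.7 ± 40.6 and 106 ± 42.3 CPM (SD, n = 3) in untreated, Rspo1/tdTom- and Rspo1/tdTom+ cells. It thus followed the treatment but did not separate the gates: between the Rspo1 groups its log2 fold change was 0.26 (SE 0.50, edgeR adjusted p = 0.733), and 0.31 (SE 0.22, edgeR adjusted p = 0.28) with passage as a block. The summed level of 20 proliferation genes differed between the groups, at 209 to 324 CPM in untreated, 482 to 538 CPM in Rspo1/tdTom- and 1010 to 1430 CPM in Rspo1/tdTom+ libraries. Its part in the results below was not tested. In sorted bulk samples, fewer cells with a transcript and less of it per cell cannot be told apart.

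Between Rspo1/tdTom+ and untreated cells none of the 10 genes passed the test. With edgeR (quasi-likelihood F-test, p-values adjusted by Benjamini-Hochberg over the 17011 genes, threshold 0.05), 0 of 10 were called, against 5.21% of all genes tested. None had an unadjusted p under 0.05 by edgeR, and DESeq2, which called 1506 of all 17011 genes, called none of the 10. Their log2 fold changes lay between -0.25 (Ctnnb1) and 0.14 (Dvl1), with standard errors of 0.11 to 0.21 and a median of 0.01, beside a median of -0.01 over all genes. A missed threshold does not show that the levels were equal. Csnk1a1 was the single member whose libraries did not overlap between these groups (lower in Rspo1/tdTom+ cells, log2 fold change -0.22, SE 0.13), against 23.2% of all genes with groups that did not overlap.

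The Rspo1/tdTom- cells stood apart from both other groups for several members, as they did for many other genes. The counts below are therefore not read as a result about the members as a set. Against untreated cells, Apc, Gsk3b and Csnk1a1 were lower and no member was higher, so 3 of 10 were called, against 21.9% of all genes (13.9% lower and 8% higher). Rspo1/tdTom+ against Rspo1/tdTom- cells gave 3 members higher (Apc, Gsk3b and Dvl3) and Dvl2 lower, so 4 of 10 were called, against 24.3% of all genes (14.6% higher and 9.78% lower). The members' median log2 fold changes were -0.16 and 0.09 in these comparisons, and the medians of all genes were -0.02 and 0.03. Groups of libraries did not overlap for 6 of 10 members in each, against 36.3% and 45.2% of all genes. Of the calls over all genes in Rspo1/tdTom- against untreated cells, 36.5% were higher, and 49.5% were with upper-quartile scaling. These comparisons share the Rspo1/tdTom- libraries, so their values are given side by side and are not independent.

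**Figure D1:**
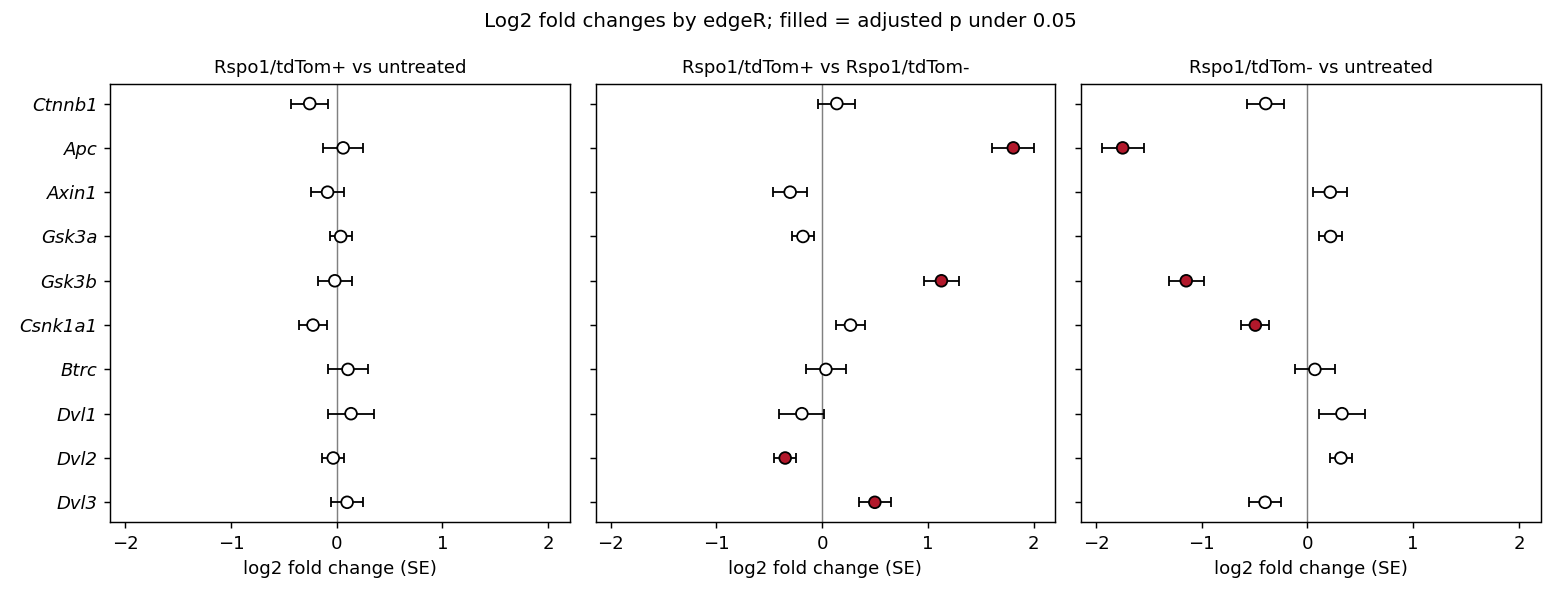
Log2 fold changes (points) with standard errors (bars) of the 10 genes in the 3 group comparisons; filled points have an adjusted p under 0.05 by edgeR. No point is filled in Rspo1/tdTom+ against untreated cells, while Apc and Gsk3b lie farthest from 0 in both comparisons with Rspo1/tdTom- cells, on opposite sides.

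Gene-wide properties moved with the same comparisons. When all genes with a value were split into 5 equal classes, the class with the lowest GC content in the transcript (23% to 44.4%) gave a median of -0.67 for the log2 fold changes of Rspo1/tdTom- against untreated cells, and the class with the highest (55.9% to 83.1%) gave 0.27. In Rspo1/tdTom+ against Rspo1/tdTom- cells these medians were 0.67 and -0.30, and in Rspo1/tdTom+ against untreated cells they were -0.03 and -0.02. Across the 10 members, transcript GC content and the log2 fold change in Rspo1/tdTom- against untreated cells had a Pearson correlation of 0.68, given as a description over genes that are not independent. Each member is therefore given also from a fit with an offset per gene and library that removes the smooth dependence on GC content and transcript length. The offset was estimated from these same libraries and removes any difference that follows GC content or length, whatever its source. With it 0 of 10 members were called in Rspo1/tdTom+ against untreated cells (6.24% of all genes), and 1046 genes (6.15%) were called in Rspo1/tdTom- against untreated cells and 1130 (6.64%) in Rspo1/tdTom+ against Rspo1/tdTom- cells. The part of RNA quality or library preparation was not tested.

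**Figure D2:**
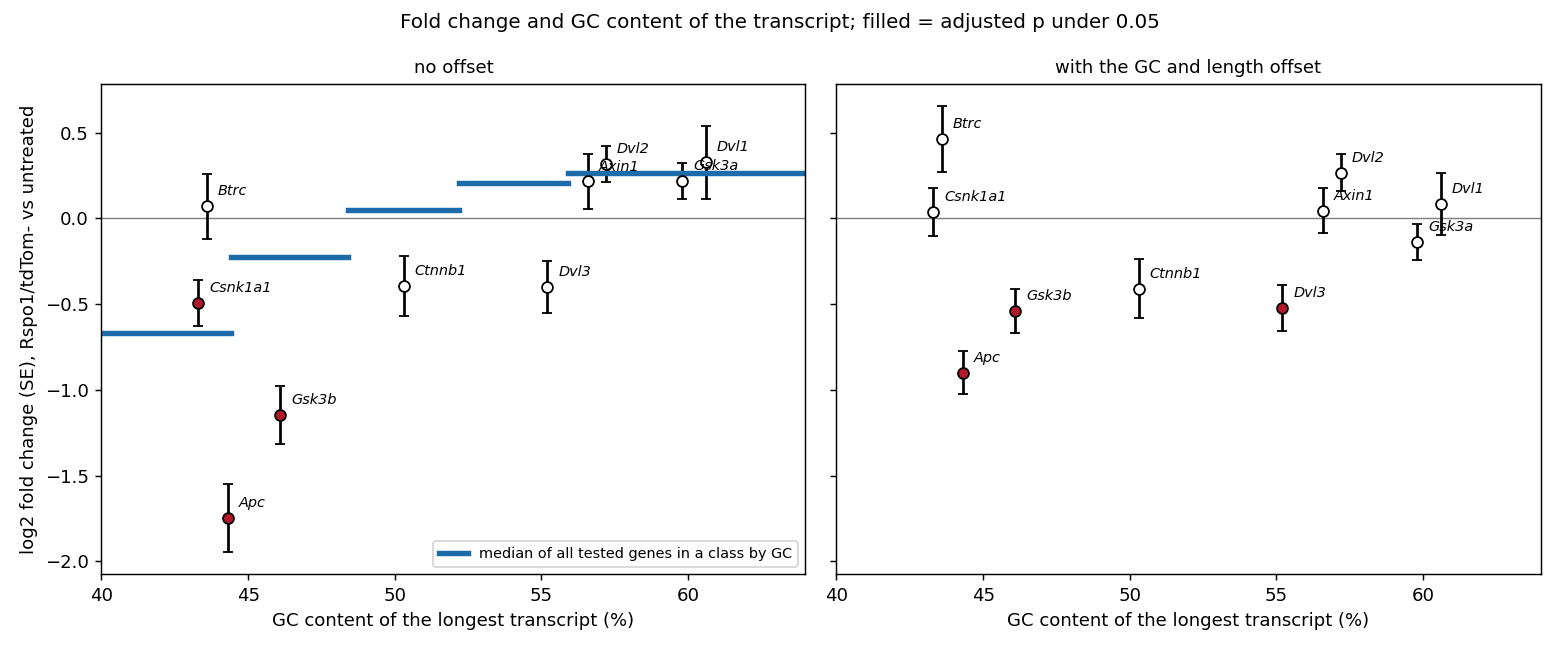
Log2 fold change in Rspo1/tdTom- against untreated cells (points, bars are standard errors) by GC content of the longest protein-coding transcript in percent. Fits are without (left) and with (right) the GC and length offset. Blue lines are medians of all tested genes in 5 equal classes by GC content, and filled points have an adjusted p under 0.05. With the offset Apc moves from -1.75 to -0.90 and Csnk1a1 from -0.49 to 0.04, while Dvl3 goes from -0.40 to -0.52.

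Ctnnb1, the substrate of the complex, was by far the most abundant of the 10 transcripts. It measured 1792, 1967 and 1470 CPM at passages 5, 6 and 10 in untreated cells, 1173, 1559 and 1246 CPM in Rspo1/tdTom- cells, and 1512, 1485 and 1386 CPM in Rspo1/tdTom+ cells. The groups overlapped in every comparison, the highest Rspo1/tdTom- library (passage 6) lying above the lowest untreated library (passage 10). The log2 fold change was -0.39 (SE 0.17, edgeR adjusted p = 0.129) in Rspo1/tdTom- against untreated cells, 0.14 (SE 0.17, adjusted p = 0.592) in Rspo1/tdTom+ against Rspo1/tdTom- cells and -0.25 (SE 0.17, adjusted p = 0.525) in Rspo1/tdTom+ against untreated cells. Within passages, Rspo1/tdTom- and Rspo1/tdTom+ cells were both below untreated cells in 3 of 3. Fitted with the offset for GC content and length, the first of these values was -0.41 (SE 0.17, edgeR adjusted p = 0.183), and none of the 14 alternative fits of any of the 3 comparisons called Ctnnb1.

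Apc, the large scaffold that binds beta-catenin and Axin, had the largest difference of the 10. Its level was 81.4, 71.4 and 97.7 CPM at passages 5, 6 and 10 in untreated cells, 23.3, 32.3 and 19.1 CPM in Rspo1/tdTom- cells, and 91.6, 78.7 and 91.2 CPM in Rspo1/tdTom+ cells. All 3 Rspo1/tdTom- libraries lay below every other library, and the untreated and Rspo1/tdTom+ libraries overlapped. Rspo1/tdTom- cells had 0.298 times the level of untreated cells (log2 fold change -1.75, SE 0.20, edgeR adjusted p = 0.000993), and Rspo1/tdTom+ cells 3.50 times that of Rspo1/tdTom- cells (log2 fold change 1.81, SE 0.20, edgeR adjusted p = 0.0017). In Rspo1/tdTom+ against untreated cells the log2 fold change was 0.06 (SE 0.19, adjusted p = 0.929).

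The Apc difference was present in every passage. In log2 CPM, Rspo1/tdTom- minus untreated was -1.81, -1.14 and -2.35 at passages 5, 6 and 10, and Rspo1/tdTom+ minus Rspo1/tdTom- was 1.97, 1.28 and 2.26. Passage 6 had the smallest difference in both. The longest protein-coding Apc transcript, 12811 bases at 44.3% GC, is longer than those of 99.3% of the genes tested. Under the offset the log2 fold changes were -0.90 (SE 0.12, edgeR adjusted p = 0.00644) and 0.89 (SE 0.12, edgeR adjusted p = 0.014). Apc was called in all 14 alternative fits of both comparisons.

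Axin1, the scaffold that brings Apc, the kinases and beta-catenin together, was not called. Its libraries ranged from 64.6 to 80.8 CPM in untreated, 69.3 to 97.8 CPM in Rspo1/tdTom- and 59.7 to 74.5 CPM in Rspo1/tdTom+ cells, with passage 10 highest in each group. Rspo1/tdTom- cells were above untreated and above Rspo1/tdTom+ cells in 3 of 3 passages, by a log2 fold change of 0.22 (SE 0.16, edgeR adjusted p = 0.365) and with -0.30 (SE 0.16, edgeR adjusted p = 0.195) for Rspo1/tdTom+ against Rspo1/tdTom- cells. In the authors' deposited table the latter is -0.31 with an adjusted p of 0.034. With the GC and length offset the edgeR adjusted p was 0.875 for Rspo1/tdTom- against untreated cells and 0.508 between the Rspo1 groups. Over the 14 alternative fits these log2 fold changes ran from 0.04 to 0.33 and from -0.41 to -0.15.

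**Figure D3:**
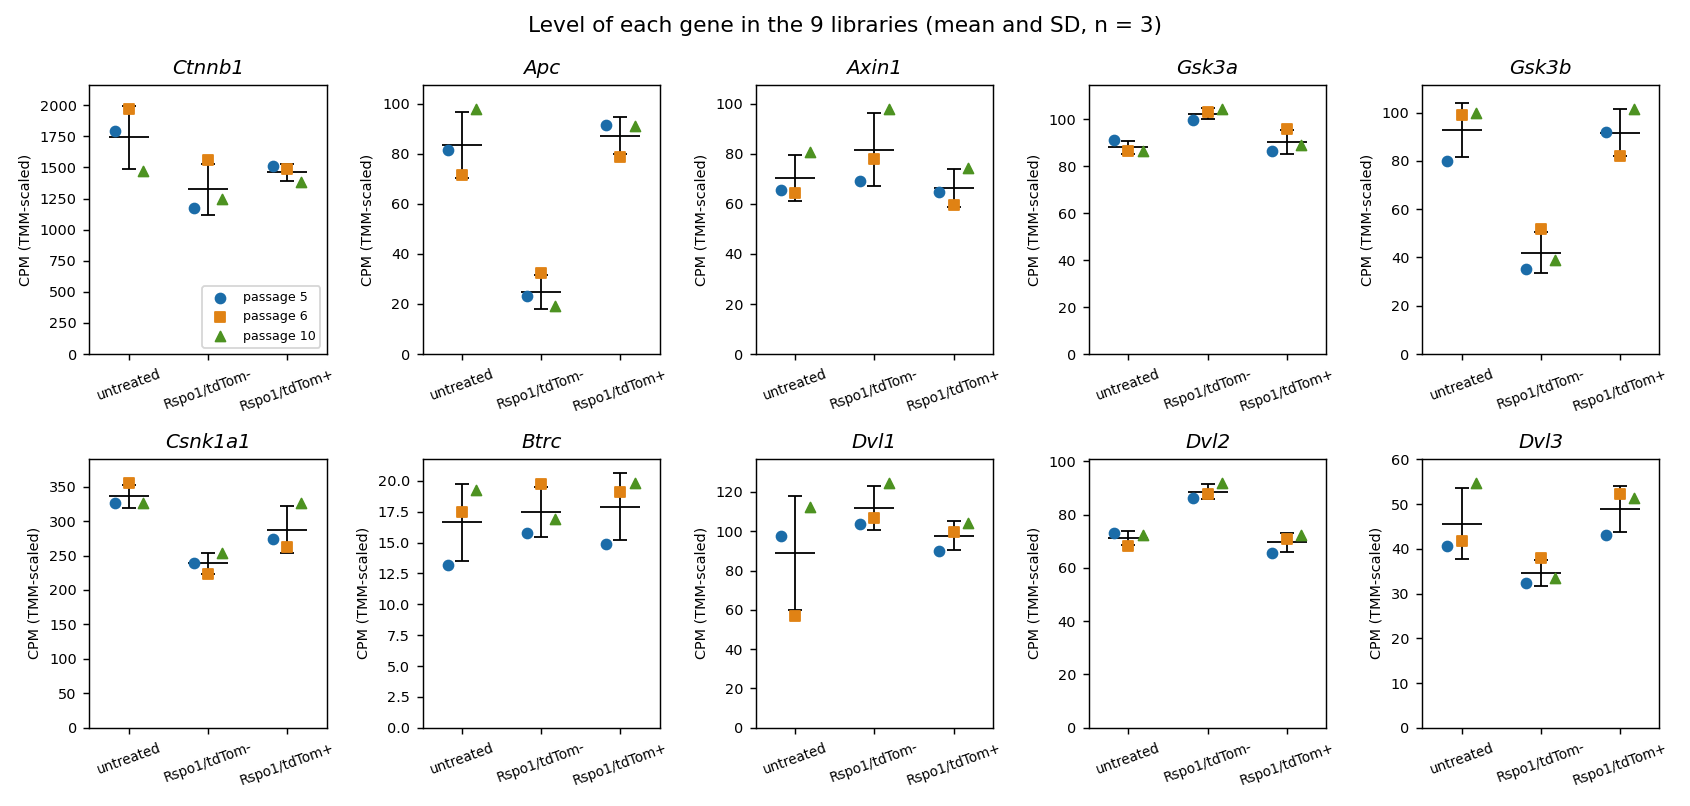
Level of each of the 10 genes in CPM, on axes that start at 0, in the 9 libraries by group; points are libraries with the passage as colour and shape, and lines are the mean and SD of 3 libraries. Apc and Gsk3b in Rspo1/tdTom- cells lie below all other libraries, and the untreated library of passage 6 lies apart for Dvl1.

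The paralogous kinases Gsk3a and Gsk3b, which both phosphorylate beta-catenin, did not run in parallel. Gsk3b measured 79.9, 98.9 and 99.7 CPM at passages 5, 6 and 10 in untreated cells, 35.4, 51.6 and 38.8 CPM in Rspo1/tdTom- cells, and 91.7, 82.0 and 101.3 CPM in Rspo1/tdTom+ cells. As with Apc, the 3 Rspo1/tdTom- libraries lay below the other 6. The level in Rspo1/tdTom- cells was 0.452 times that in untreated cells (log2 fold change -1.15, SE 0.17, edgeR adjusted p = 0.00177). Rspo1/tdTom+ cells had 2.19 times the Rspo1/tdTom- level (log2 fold change 1.13, SE 0.17, edgeR adjusted p = 0.00228).

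Differences in Gsk3b within passages 5, 6 and 10 were -1.17, -0.94 and -1.36 in log2 CPM for Rspo1/tdTom- minus untreated cells. The offset fit gave, against untreated cells, a log2 fold change of -0.54 (SE 0.13, edgeR adjusted p = 0.0361). That between the Rspo1 groups was 0.45 (SE 0.13, adjusted p = 0.0589) and was no longer called, while the same offset with passage as a block gave 0.45 (SE 0.11, adjusted p = 0.0153). Its longest protein-coding transcript, 8303 bases, is longer than those of 96.2% of genes tested.

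Gsk3a measured 91.2, 86.4 and 86.7 CPM in untreated cells at passages 5, 6 and 10, 99.8, 103.4 and 104.3 CPM in Rspo1/tdTom- cells, and 86.4, 96.0 and 89.0 CPM in Rspo1/tdTom+ cells. Its Rspo1/tdTom- libraries were the highest of the 9, without a call (log2 fold change against untreated 0.22, SE 0.11, edgeR adjusted p = 0.165). This direction turned under the offset (-0.14, SE 0.10, edgeR adjusted p = 0.472), as did that of Rspo1/tdTom+ against Rspo1/tdTom- cells, from -0.18 to 0.14.

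Deposited FPKM, which divide by transcript length, allow the paralogs to be compared. Gsk3a made up 80.7%, 76.3% and 76.2% of the summed Gsk3 FPKM in untreated cells at passages 5, 6 and 10, 91.2%, 88.0% and 90.8% in Rspo1/tdTom- cells, and 77.6%, 81.1% and 76.4% in Rspo1/tdTom+ cells. The Rspo1/tdTom- shares did not overlap those of either other group. The mean share was 12.3 percentage points higher in Rspo1/tdTom- than in untreated cells and the same test between the Rspo1 groups gave -11.7 points (exact two-sided permutation test, p = 0.1 for each, the smallest that 3 against 3 libraries allow, 0.188 after adjustment over the family comparisons). These shares carry the GC and length dependence described above.

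Csnk1a1, the priming kinase of beta-catenin, was the second most abundant member. Its level was 326, 355 and 326 CPM at passages 5, 6 and 10 in untreated cells, 239, 224 and 253 CPM in Rspo1/tdTom- cells and 274, 263 and 326 CPM in Rspo1/tdTom+ cells. Untreated and Rspo1/tdTom- libraries did not overlap, and the Rspo1/tdTom+ libraries lay above all Rspo1/tdTom- ones. Against untreated cells, Rspo1/tdTom- cells were lower (log2 fold change -0.49, SE 0.13, edgeR adjusted p = 0.0254), and Rspo1/tdTom+ against Rspo1/tdTom- cells gave 0.27 (SE 0.13, edgeR adjusted p = 0.168). The call did not hold with the GC and length offset (log2 fold change 0.04, SE 0.14, edgeR adjusted p = 0.903). It was also lost without any single library of these groups except the untreated library of passage 10 (edgeR adjusted p up to 0.0758), and was kept in 5 of 14 alternative fits.

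Btrc, the substrate receptor of the ubiquitin ligase, was the scarcest member by CPM. Its libraries ranged from 13.2 to 19.2 CPM in untreated, 15.8 to 19.7 CPM in Rspo1/tdTom- and 14.9 to 19.8 CPM in Rspo1/tdTom+ cells, and the groups overlapped throughout. The log2 fold change was 0.07 (SE 0.19, edgeR adjusted p = 0.825) in Rspo1/tdTom- against untreated cells and 0.04 (SE 0.19, adjusted p = 0.91) between the Rspo1 groups. With both passage as a block and the GC and length offset these became 0.47 (SE 0.12, edgeR adjusted p = 0.0197) and -0.44 (SE 0.12, edgeR adjusted p = 0.0252). Its longest protein-coding transcript, of 3037 bases, has 43.6% GC, beside 44.3% for Apc and 43.3% for Csnk1a1. For Btrc the deposited FPKM correspond to 4720 bases, so the GC content of what was counted may differ from this value. The part of GC content in its level was not tested.

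The Dishevelled genes, which carry the receptor signal to the complex, also differed among themselves. Dvl1 measured 97.8, 56.8 and 112 CPM at passages 5, 6 and 10 in untreated cells, 104, 107 and 125 CPM in Rspo1/tdTom- cells and 89.9, 99.5 and 104 CPM in Rspo1/tdTom+ cells. The untreated library of passage 6 lay below the other 8. Dvl1 was called in no comparison, and its log2 fold change in Rspo1/tdTom- against untreated cells, 0.33 (SE 0.21, edgeR adjusted p = 0.302), was 0.09 (SE 0.14, edgeR adjusted p = 0.674) without that library.

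Dvl2 measured 73.0, 68.2 and 72.3 CPM in untreated cells at passages 5, 6 and 10, 86.3, 87.7 and 91.8 CPM in Rspo1/tdTom- cells, and 65.5, 70.8 and 72.3 CPM in Rspo1/tdTom+ cells. All Rspo1/tdTom- libraries lay above the other 6. Rspo1/tdTom+ against Rspo1/tdTom- cells gave a log2 fold change of -0.35 (SE 0.11, edgeR adjusted p = 0.0363), with -0.40, -0.31 and -0.34 in log2 CPM at passages 5, 6 and 10. Against untreated cells the Rspo1/tdTom- value was 0.32 (SE 0.11, edgeR adjusted p = 0.0551), and with passage as a block it passed the test (0.32, SE 0.10, edgeR adjusted p = 0.0367). It was called in 4 of 14 alternative fits, the lowest adjusted p being 0.00746 with DESeq2. The difference between the Rspo1 groups was called in 6 of 14 alternative fits. It missed the threshold with the GC and length offset (-0.32, SE 0.11, edgeR adjusted p = 0.0969) and without any single library of these groups except the Rspo1/tdTom- library of passage 6 (edgeR adjusted p up to 0.148).

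Dvl3 ran the other way. It measured 40.6, 41.7 and 54.7 CPM in untreated cells at passages 5, 6 and 10, 32.4, 37.9 and 33.6 CPM in Rspo1/tdTom- cells, and 43.0, 52.3 and 51.4 CPM in Rspo1/tdTom+ cells. All Rspo1/tdTom- libraries lay below the other 6. The log2 fold change of Rspo1/tdTom+ against Rspo1/tdTom- cells was 0.50 (SE 0.15, edgeR adjusted p = 0.0357) and that of Rspo1/tdTom- against untreated cells was -0.40 (SE 0.15, edgeR adjusted p = 0.0817). With passage as a block the latter passed the test (-0.39, SE 0.13, edgeR adjusted p = 0.0333), which with Dvl2 raised the members called in that comparison from 3 to 5, against 35.5% of all genes called under the block. Between the Rspo1 groups the block called 4 members, as without it, against 38.9% of all genes.

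At 55.2% GC, the Dvl3 transcript lies in the class of genes (52.2% to 55.9%) whose median log2 fold change in Rspo1/tdTom- against untreated cells was 0.21. Its values under the offset were 0.60 (SE 0.13, edgeR adjusted p = 0.0291) and -0.52 (SE 0.13, edgeR adjusted p = 0.0472), so that the offset added a call in the second comparison. The Rspo1 groups' difference was called in 7 of 14 alternative fits and missed the threshold without any single library of these groups except the Rspo1/tdTom- library of passage 6 (edgeR adjusted p up to 0.123).

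By FPKM, Dvl1 made up 41.4% ± 7.13 (SD, n = 3), Dvl2 32.5% ± 4.96 (SD, n = 3) and Dvl3 26.1% ± 3.34 (SD, n = 3) of the summed Dishevelled level in untreated cells. In Rspo1/tdTom- cells the shares were 47.0% ± 2.15, 35.4% ± 0.958 and 17.5% ± 1.66 (SD, n = 3), and in Rspo1/tdTom+ cells 44.0% ± 0.546, 29.7% ± 0.718 and 26.3% ± 1.0 (SD, n = 3). The Dvl3 share in each Rspo1/tdTom- library (17.3%, 19.3% and 16.0%) was below that in every other library, the lowest of which was 22.6%. Its difference from Rspo1/tdTom+ cells was 8.80 percentage points, with an exact two-sided permutation p of 0.1 (0.188 adjusted). The shares depend on the length used for Dvl1, for which the FPKM correspond to 4774 bases and the longest protein-coding transcript has 3358. From CPM per length of the longest protein-coding transcript, the untreated shares of Dvl1, Dvl2 and Dvl3 were 49.95%, 27.8% and 22.3%. Like those of Gsk3a, these shares carry the GC and length dependence described above.

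**Figure D4:**
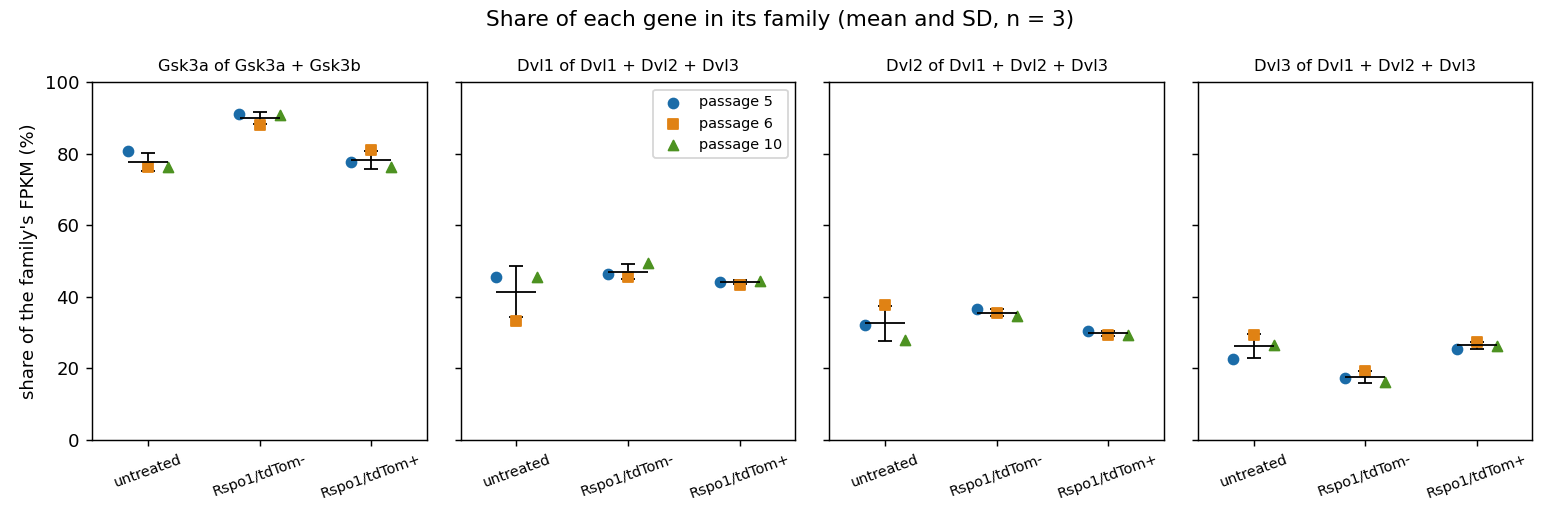
Share of each gene in the summed deposited FPKM of its family, in percent from 0 to 100, by group; points are libraries with the passage as colour and shape, and lines are the mean and SD of 3 libraries. Gsk3a is at 88.0% to 91.2% in Rspo1/tdTom- cells and at 76.2% to 81.1% elsewhere, and Dvl3 is lower in Rspo1/tdTom- cells than elsewhere.

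The order of the levels by deposited FPKM was nearly the same in all groups. For Dvl1 and Btrc these FPKM correspond to more bases than the longest protein-coding transcript. In untreated cells Ctnnb1 stood at 473 ± 68.6 FPKM (SD, n = 3), Csnk1a1 at 80.9 ± 3.91 and Gsk3a at 38.4 ± 1.27. Dvl1 (18.4 ± 5.95) and Axin1 (18.3 ± 2.34) followed, and did not differ beyond their spread. Dvl2 (13.9 ± 0.534), Dvl3 (11.3 ± 1.92) and Gsk3b (11.0 ± 1.30) came next, and neighbours among them overlapped. Apc (6.66 ± 1.05) and Btrc (3.47 ± 0.638) closed the order. In Rspo1/tdTom- cells the last places were exchanged, with Apc at 2.03 ± 0.546 FPKM (SD, n = 3) below Btrc at 3.73 ± 0.385, and no overlap between their libraries.

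No member passed the threshold between passages. Each passage held 1 library of each group, so the groups served as the repeats of a passage. Passage cannot be told apart from whatever else its libraries share. The p-values of these comparisons do not measure the spread between repeated cultures of a passage. With group in the fit, 0 of 10 were called between passages 10 and 5, against 9.07% of all genes, and 0 between passages 6 and 5, against 2.49%. The libraries of the passages did not overlap for 3 members (Axin1, Btrc and Dvl1) between 10 and 5, against 16.7% of all genes, and for Btrc between 6 and 5, against 8.83%. DESeq2 called no member in either comparison, where it called 2151 and 851 of all 17011 genes. At an unadjusted p under 0.05 edgeR gave 2 and 1 members. The share of all genes at that threshold was not computed, so these counts are not read as a result. Between passages 10 and 5 the 2 were Axin1 (log2 fold change 0.33, SE 0.11, edgeR adjusted p = 0.0809) and Btrc (0.36, SE 0.14, edgeR adjusted p = 0.123), both higher at passage 10, and Btrc was also the 1 between passages 6 and 5 (0.36, SE 0.14, edgeR adjusted p = 0.225). Axin1 was called without the untreated library of passage 6 (edgeR adjusted p = 0.0351), and Btrc with the GC and length offset (0.41, SE 0.12, edgeR adjusted p = 0.0484).

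The authors' deposited table lists all 10 members in each comparison. It holds none with an adjusted p under 0.05 in Rspo1/tdTom+ against untreated cells, where 13.9% of its 15807 genes have one. For Rspo1/tdTom- against untreated cells the authors' deposited table has 3, Apc (log2 fold change -1.75), Gsk3b (-1.14) and Csnk1a1 (-0.48), where 27% of its genes have one. Between the Rspo1 groups it has 5, Apc (1.82), Gsk3b (1.12), Dvl3 (0.48), Dvl2 (-0.37) and Axin1 (-0.31), against 44.1% in the authors' deposited table.

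Of 11660 well expressed genes, the 5 whose log2 CPM over the 9 libraries ran most like that of Ctnnb1 were Rnf217 (Pearson r = 0.981), Map3k5 (0.972), Ulk4 (0.966), Cmtm4 (0.959) and Il6st (0.959), beside a median of 0.01. Ulk4 overlaps exons of Ctnnb1 on the opposite strand. Of the other members, Gsk3b (0.642), Csnk1a1 (0.598) and Apc (0.573) ranked highest and Dvl1 (-0.738) lowest. The libraries share groups and passages, so these values describe likeness only.

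Among 29 tested partners of the destruction complex (other kinases, ligase subunits, phosphatase 2A subunits, tankyrases and deubiquitinases), Rspo1/tdTom+ cells were higher for 10 and lower for 1 against Rspo1/tdTom- cells, where 14.6% of all genes were higher and 9.78% lower. Passage as a block gave 11 higher and 4 lower, where 38.9% of all genes were called in either direction. Rspo1/tdTom- cells were higher for 1 and lower for 9 against untreated cells, where 8% of all genes were higher and 13.9% lower. The medians were 0.14 and -0.16, and the medians of all genes were 0.03 and -0.02. Tnks, which marks Axin for degradation, stood at 97.2 ± 9.21, 44.8 ± 16.6 and 98.7 ± 1.43 CPM (SD, n = 3) in untreated, Rspo1/tdTom- and Rspo1/tdTom+ cells, and its log2 fold change was -1.12 (SE 0.21, edgeR adjusted p = 0.006) and 1.14 (SE 0.21, edgeR adjusted p = 0.00574). Usp34, a deubiquitinase of Axin, gave -1.38 (SE 0.18, edgeR adjusted p = 0.00137) and 1.29 (SE 0.18, edgeR adjusted p = 0.00202), and Tnks2 gave 0.80 (SE 0.19, edgeR adjusted p = 0.0132) between the Rspo1 groups. Under the offset 1 partner was higher and 1 lower against untreated cells, where 6.15% of all genes were called in either direction. Between the Rspo1 groups 0 were higher and 1 lower under it, where 6.64% of all genes were called. Tnks then gave -0.56 (edgeR adjusted p = 0.0455) and 0.51 (edgeR adjusted p = 0.0559), and Usp34 -0.35 (edgeR adjusted p = 0.122) and 0.20 (edgeR adjusted p = 0.33). Tnks2 gave 0.11 (edgeR adjusted p = 0.681) between the Rspo1 groups.

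Axin2, the inducible paralog of Axin1 and itself a Wnt target, was the 1 partner called in Rspo1/tdTom+ against untreated cells (log2 fold change 5.13, SE 0.61, edgeR adjusted p = 0.00131) and the 1 called higher in Rspo1/tdTom- against untreated cells (4.87, SE 0.60, edgeR adjusted p = 0.00115). Between the Rspo1 groups, which were sorted by the reporter it drives, it was not called, as given above. Under the passage block Rspo1/tdTom+ against untreated cells had 2 called partners of 29, where 2247 of all 17011 genes were called. Fbxw11, the paralog of Btrc, chosen here after its values were seen, was not called (-0.08, SE 0.12, edgeR adjusted p = 0.669, in Rspo1/tdTom- against untreated cells).

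Of 22 tested co-receptors and Dishevelled partners, 3 were higher and 4 lower in Rspo1/tdTom- against untreated cells. In Rspo1/tdTom+ against Rspo1/tdTom- cells 3 were higher and 1 lower, both comparisons beside the same shares of all genes as above. With passage as a block 6 were higher and 2 lower between the Rspo1 groups, where 38.9% of all genes were called in either direction. With the offset 2 were higher and 1 lower against untreated cells, where 6.15% of all genes were called in either direction. Between the Rspo1 groups 0 were higher and 1 lower with it, where 6.64% of all genes were called. Lrp6, the Wnt co-receptor, stood at 131 ± 15, 56.6 ± 19.6 and 105 ± 9.22 CPM (SD, n = 3) in untreated, Rspo1/tdTom- and Rspo1/tdTom+ cells, with log2 fold changes of -1.21 (SE 0.21, edgeR adjusted p = 0.004) and 0.89 (SE 0.21, edgeR adjusted p = 0.0135). The offset fits gave -0.58 (edgeR adjusted p = 0.0453) and 0.19 (edgeR adjusted p = 0.442). Its paralog Lrp5, named after its values were seen, went the other way in Rspo1/tdTom- against untreated cells (0.68, SE 0.15, edgeR adjusted p = 0.0114). With the offset that value was 0.60 (edgeR adjusted p = 0.031).

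Daam1, a formin that binds Dishevelled, gave 0.93 (SE 0.18, edgeR adjusted p = 0.0066) between the Rspo1 groups, and 0.39 (edgeR adjusted p = 0.125) with the offset. Dixdc1, a protein with the DIX domain of Dishevelled, gave -0.86 (SE 0.15, edgeR adjusted p = 0.00387) in Rspo1/tdTom- against untreated cells, and -0.43 (edgeR adjusted p = 0.119) with the offset. The planar polarity gene Prickle1 was the 1 called in Rspo1/tdTom+ against untreated cells, from 2.88 ± 0.786 to 9.08 ± 1.35 CPM (SD, n = 3; log2 fold change 1.65, SE 0.32, edgeR adjusted p = 0.0137). It was also called in Rspo1/tdTom- cells against untreated ones (1.28, SE 0.32, edgeR adjusted p = 0.0182) and not between the Rspo1 groups (0.37, SE 0.31, edgeR adjusted p = 0.411). Under the passage block 2 of these 22 partners were called in Rspo1/tdTom+ against untreated cells, where 2247 of all 17011 genes were called. Ccdc88a, which codes for girdin, rose from 1.20 ± 0.289 CPM in Rspo1/tdTom- to 4.21 ± 1.56 CPM in Rspo1/tdTom+ cells (SD, n = 3; log2 fold change 1.82, SE 0.35, edgeR adjusted p = 0.00618), and with the offset it gave 0.67 (edgeR adjusted p = 0.228).

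Nuclear partners of beta-catenin gave 3 higher and 7 lower of 19 tested in Rspo1/tdTom- against untreated cells, where 8% of all genes were higher and 13.9% lower. Rspo1/tdTom+ against Rspo1/tdTom- cells gave 6 higher and 0 lower, where 14.6% of all genes were higher and 9.78% lower. The coactivators Ep300 (-1.22, SE 0.21, edgeR adjusted p = 0.00385) and Cdc73 (-1.22, SE 0.17, edgeR adjusted p = 0.00159) were lower in Rspo1/tdTom- than in untreated cells. Ep300 (1.03, SE 0.21, edgeR adjusted p = 0.00788), Crebbp (1.03, SE 0.23, edgeR adjusted p = 0.0115) and the kinase Hipk2 (1.03, SE 0.23, edgeR adjusted p = 0.0117) were higher in Rspo1/tdTom+ than in Rspo1/tdTom- cells. With the offset 2 were higher and 3 lower against untreated cells, where 6.15% of all genes were called in either direction. Between the Rspo1 groups the offset left 3 higher and 0 lower, where 6.64% of all genes were called. Ep300 then gave -0.88 (edgeR adjusted p = 0.0117) against untreated cells, and Cdc73 gave 0.11 (edgeR adjusted p = 0.727). In Rspo1/tdTom+ against untreated cells 2 were called, the TCF family gene Tcf7 (2.49, SE 0.42, edgeR adjusted p = 0.00686) and the corepressor Tle1 (1.03, SE 0.25, edgeR adjusted p = 0.0381). Both were called in Rspo1/tdTom- cells against untreated ones as well, Tcf7 with 2.06 (SE 0.42, edgeR adjusted p = 0.00794) and Tle1 with 0.99 (SE 0.25, edgeR adjusted p = 0.0185). Between the Rspo1 groups neither was called (0.43, SE 0.40, edgeR adjusted p = 0.459 for Tcf7 and 0.04, SE 0.25, edgeR adjusted p = 0.923 for Tle1), and Tcf7 passed the threshold there with both block and offset (0.65, SE 0.18, edgeR adjusted p = 0.0297).

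At the cell junction, where the other pool of beta-catenin resides, 3 of 9 tested catenins, cadherins and linkers were lower and 0 higher in Rspo1/tdTom- against untreated cells, beside 13.9% lower and 8% higher of all genes. They were Ctnnal1 (-0.64, SE 0.21, edgeR adjusted p = 0.048), Afdn (-0.61, SE 0.19, edgeR adjusted p = 0.0425) and Vcl (-0.41, SE 0.12, edgeR adjusted p = 0.037). Afdn, which links nectins to actin, was the 1 called between the Rspo1 groups (0.71, SE 0.19, edgeR adjusted p = 0.0219). The block called 2 of the 9 between these groups, against 38.9% of all genes. None was called in Rspo1/tdTom+ against untreated cells by edgeR or DESeq2, which called 886 and 1506 of all 17011 genes. None of the 9 had an unadjusted p under 0.05 by edgeR. With the offset none of the 9 was called in any of the 3 comparisons, against 6.15% to 6.64% of all genes.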

How the data were processed

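Total RNA of sorted cells was read single-end over 75 bp, as the labels' protocols state. The submitters' processing notes name Trimmomatic 0.35, FastQC 0.11.2, STAR 2.5.1b, featureCounts, DESeq2 and GRCm38, and the annotation and strand setting are not given in the sources used here. The deposited files hold raw counts and FPKM per gene, per the file headers, and the authors' deposited tables hold log2 fold changes with adjusted p-values, whose design formula is not given in the sources used here. For 83.8% of genes the deposited FPKM matched the annotation's longest transcript (protein-coding where a gene has any) within 5%. For Btrc and Dvl1 they correspond to 4720 and 4774 bases, against 3037 and 3358.

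Counts were analysed with R 4.3.3 and edgeR 4.0.16 (limma 3.58.1). Genes were filtered by filterByExpr (minimum count 10, minimum total 15) and scaled by TMM. All 9 libraries entered 1 quasi-likelihood fit by group, and passages were compared in a fit of group and passage, with Benjamini-Hochberg adjustment over 17011 genes and a threshold of 0.05. The standard error is the log2 fold change divided by the square root of F. Family shares were tested by exact permutation. The GC and length offset was a smooth per library (mgcv 1.9.3, basis size 6) over 17001 genes with a value. The scripts were tested on simulated data.

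Same-numbered libraries share a passage, per the labels. After removal of group means, the 9 pairs of the same passage correlated at 0.123 to 0.573 and the 18 other pairs at -0.476 to 0.0826, so passage numbers pair the libraries. Replicate libraries of a group differed by a chi-square of at least 57.9 per gene, so no library was a copy of another of its group. Alternatives were RLE and upper-quartile scaling, DESeq2 1.42.0, no filter, the offset, leaving out each library, the 6 libraries compared alone, and the passage block without and with the offset. Named genes are the 10 members, Axin2, the 5 genes most like Ctnnb1 (mean log2 CPM above 2, prior count 2), and up to 3 called genes per partner list and comparison with the largest change. Members, lists and tests were chosen with earlier results of these data known. Python 3.11.15 drew the figures.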

Additional observations from a re-analysis of the deposited data

How the results depend on the processing

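A sign change of a log2 fold change is given below where the value reached its standard error in either fit. Of 784 values of single genes and family shares under the alternatives, 62 changed sign below that size (for shares, below the larger group SD), 23 of single genes lost the call and 10 gained it. With the GC and length offset, Rspo1/tdTom+ against Rspo1/tdTom- cells changed sign for Gsk3a (0.14), Csnk1a1 (-0.34) and Btrc (-0.43), and for the same genes with the passage block as well (0.14, -0.33 and -0.44). In Rspo1/tdTom- against untreated cells the offset turned Gsk3a (-0.14) and Csnk1a1 (0.038), and with the block too (-0.13 and 0.028), and between passages 10 and 5 it turned Gsk3a (-0.11). Leaving out single libraries moved passage 6 against 5 from -0.36 to 0.087 for Dvl1 and from -0.27 to 0.20 for Apc. The cause of these turns was not tested, beyond the offset's removal of what follows GC content and length.

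Members called between the Rspo1 groups numbered 2 with no filter (4273 of all genes) and 2 with the offset (1130 of all genes). Without single libraries they numbered 2 to 4 (2061 to 4068 of all genes). Passage 10 against 5 had 1 with the offset (1907 of all genes) and 0 to 1 without single libraries (405 to 3594 of all genes). In Rspo1/tdTom- against untreated cells the replicate block gave 5 (6039 of all genes). Over all genes, Rspo1/tdTom+ against untreated cells (886 calls) had 1506 with DESeq2, 1446 with no filter, 2247 with the replicate block, 2764 with the block and the offset, and 390 to 899 without single libraries. Rspo1/tdTom+ against Rspo1/tdTom- cells (4141) had 1130 with the offset, 6624 with the block and 2061 to 4068 without single libraries. Rspo1/tdTom- against untreated cells (3724) had 1046 with the offset, 2299 with only the 6 libraries compared, 6039 with the block and 1800 to 3772 without single libraries. Passage 10 against 5 (1543) had 2784 with no filter and 405 to 3594 without single libraries, and passage 6 against 5 (423) had 851 with DESeq2, 1193 with no filter and 105 to 846 without single libraries. Of the 3724 and 4141 calls, 801 and 758 were made in the same direction with the offset. Apc was called in every alternative of both comparisons with Rspo1/tdTom- cells, and no member in any alternative of Rspo1/tdTom+ against untreated cells. Beside the members named in the report, the block changed no member's call.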

Other observations

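Between passages 10 and 5 the test called 1 of 29 partners of the destruction complex, 1 of 22 co-receptors and Dishevelled partners, 3 of 19 nuclear partners and 1 of 9 junction genes, against 9.07% of all genes, so these counts are not a result about the lists. Other lists differed between passages too, and passage cannot be told apart from whatever else its libraries share. At passage 10 against 5, 3 of 6 tested hepatocyte markers and 8 of 20 dissociation response genes were lower (1 of the 20 was higher), and 5 of 20 proliferation genes were higher. At passage 6 against 5, 13 of 20 proliferation genes were higher and 1 lower, and 6 of 20 dissociation response genes were lower, against 2.49% of all genes called. Their part in the values of the partners was not tested. The genes named here were chosen after their values were seen. Between passages 10 and 5, with group in the fit, the reporter's driver Axin2 was higher by a log2 fold change of 1.48 (SE 0.24, edgeR adjusted p = 0.00424), the TCF family gene Tcf7 by 0.88 (SE 0.20, edgeR adjusted p = 0.0235) and the corepressor Tle3 by 0.58 (SE 0.13, edgeR adjusted p = 0.0218). The planar polarity gene Vangl1 was higher by 0.47 (SE 0.11, edgeR adjusted p = 0.0275). Cdh2, the N-cadherin that binds beta-catenin at junctions, was lower at passage 10 (-2.13, SE 0.34, edgeR adjusted p = 0.00443) and at passage 6 (-1.51, SE 0.33, edgeR adjusted p = 0.0378), both against passage 5. The corepressor subunit Tbl1xr1 was lower at passage 10 (-0.54, SE 0.13, edgeR adjusted p = 0.0251).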
